A study of Mus musculus with 9 samples.

Results

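The 10 genes described here encode sensors of microbial molecules and the adaptor that most of them use. They are the Toll-like receptors Tlr1, Tlr2, Tlr3, Tlr4, Tlr5 and Tlr9, the cytosolic receptors Nod1, Nod2 and Nlrp6, and the adaptor Myd88. They were taken by gene symbol from the 78239 genes of the deposited count table, in which each of the 10 symbols had 1 gene ID. Polyadenylated RNA was measured by RNA-seq in 9 libraries of intestinal epithelial cells from Lgr5-2A-eGFP mice aged 8 weeks. In these mice eGFP is linked to Lgr5, a receptor of crypt stem cells. All 9 libraries come from mice with this reporter. The colon gave 3 libraries of GFP-high and 3 of GFP-negative cells, with a minimum of 30000 cells per fraction. The small intestine gave 3 libraries with a minimum of 50000 cells, whose GFP fraction the labels do not give, so region and fraction cannot be told apart in the comparisons of colon with small intestine. The labels do not say whether replicates came from separate animals or whether animals were pooled, so the spread behind each p-value is that between these samples and may be technical.

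Toll-like receptors span the cell surface or the endosome membrane and bind conserved molecules of microbes. TLR4 with its partners CD14 and MD-2 recognises lipopolysaccharide of Gram-negative bacteria, TLR2 paired with TLR1 or TLR6 recognises bacterial lipopeptides, and TLR5 recognises flagellin. TLR3 and TLR9 sit in endosomes, where TLR3 binds double-stranded RNA and TLR9 binds unmethylated CpG DNA. All of these except TLR3 signal through MyD88, which recruits IRAK kinases and leads to NF-kappaB activation. NOD1 and NOD2 are cytosolic receptors for fragments of peptidoglycan and signal through the kinase RIPK2. NLRP6 is a cytosolic inflammasome-forming receptor known for its expression in intestinal epithelium. The intestinal epithelium lives beside a dense microbiota, which is densest in the colon.

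Libraries held 86621513 to 106673547 counts, at which 3 counts equal 0.0232 to 0.0411 CPM (counts per 1000000 on the TMM-scaled library total), and between 20715 and 28206 genes had at least 1 count. Epcam, a surface protein of epithelial cells, stood between 3017 and 6207 CPM in all 9 libraries, and none of 7 epithelial markers was at 0 in any. Some of the others varied more: Krt20, a keratin of differentiated cells, ran from 10.9 CPM in colon GFP-high replicate 1 to 2364 CPM in small intestine replicate 1, and Vil1 from 115.6 to 894 CPM and Cdh1 from 134.9 to 622.3 CPM. Lgr5 went against the labels in the colon libraries numbered 2. It stood at 43.5, 0.958 and 73.0 CPM in replicates 1 to 3 of GFP-high colon, 2.84, 62.1 and 6.28 CPM in GFP-negative colon, and 57.9, 120 and 209 CPM in small intestine. The libraries labelled GFP-high replicate 2 and GFP-negative replicate 2 keep their labels here. The calls between the colon fractions are given with and without them, and the fold changes without them for some of the genes only. Leukocyte transcripts also differed between libraries. The summed CPM of Ptprc, Laptm5, Coro1a, Cd52, Cd53 and Arhgdib was 1.93, 157 and 18.9 in GFP-high colon, 124, 3.43 and 2005 in GFP-negative colon, and 26.5, 4.56 and 21.1 in small intestine. At 0 were Laptm5, Cd53 and Arhgdib in colon GFP-high replicate 1, and Cd53 was so in GFP-negative replicate 2 as labelled.

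Compared per length of transcript, as RPKM (CPM divided by the deposited gene length in kilobases), Nlrp6 and Myd88 had the highest means of the 10 genes in every group. In colon GFP-high cells, Nlrp6 averaged 33.2 ± 15.9 RPKM and Myd88 19.6 ± 3.03 RPKM (SD, n = 3), ranges that overlap. Tlr1, Tlr2 and Nod1 followed at 8.54 ± 2.94, 5.23 ± 1.58 and 4.27 ± 2.98 RPKM, and these 3 did not differ beyond their spread. Tlr3 and Tlr4 had 1.26 ± 0.707 and 0.763 ± 0.390 RPKM, again within their spread, while Tlr5 at 0.211 ± 0.0979 RPKM and Nod2 at 0.0700 ± 0.0270 RPKM lay below them and apart from each other. Colon GFP-negative cells had the same order of means, with Nlrp6 at 25.4 ± 16.4 RPKM, Myd88 at 21.1 ± 2.45 RPKM and Tlr1 at 13.4 ± 6.08 RPKM. The ranges of these genes overlapped, and in GFP-negative replicate 3 Tlr1 (19.1 RPKM) was above Nlrp6 (12.4 RPKM). In small intestine, Nlrp6 averaged 76.8 ± 9.24 RPKM and stood above Myd88 at 22.0 ± 3.03 RPKM by more than their spread. Tlr2, Nod1, Tlr3 and Tlr1 came next at 2.62 ± 1.53, 2.30 ± 0.966, 2.00 ± 0.819 and 1.80 ± 0.0531 RPKM, a set that did not separate beyond its spread. Tlr5, Nod2 and Tlr4 were the lowest of the genes detected there, at 0.0229 ± 0.0213, 0.0196 ± 0.0109 and 0.00691 ± 0.0039 RPKM. By its mean, Tlr4 thus took the 7th place among the 10 genes in both colon groups and the 9th in small intestine. The ranges of Tlr5, Nod2 and Tlr4 overlapped in small intestine, where Tlr5 was at 0 and Tlr4 at 0.00279 RPKM in replicate 3. The order of these genes there lies within their spread.

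**Figure D1:**
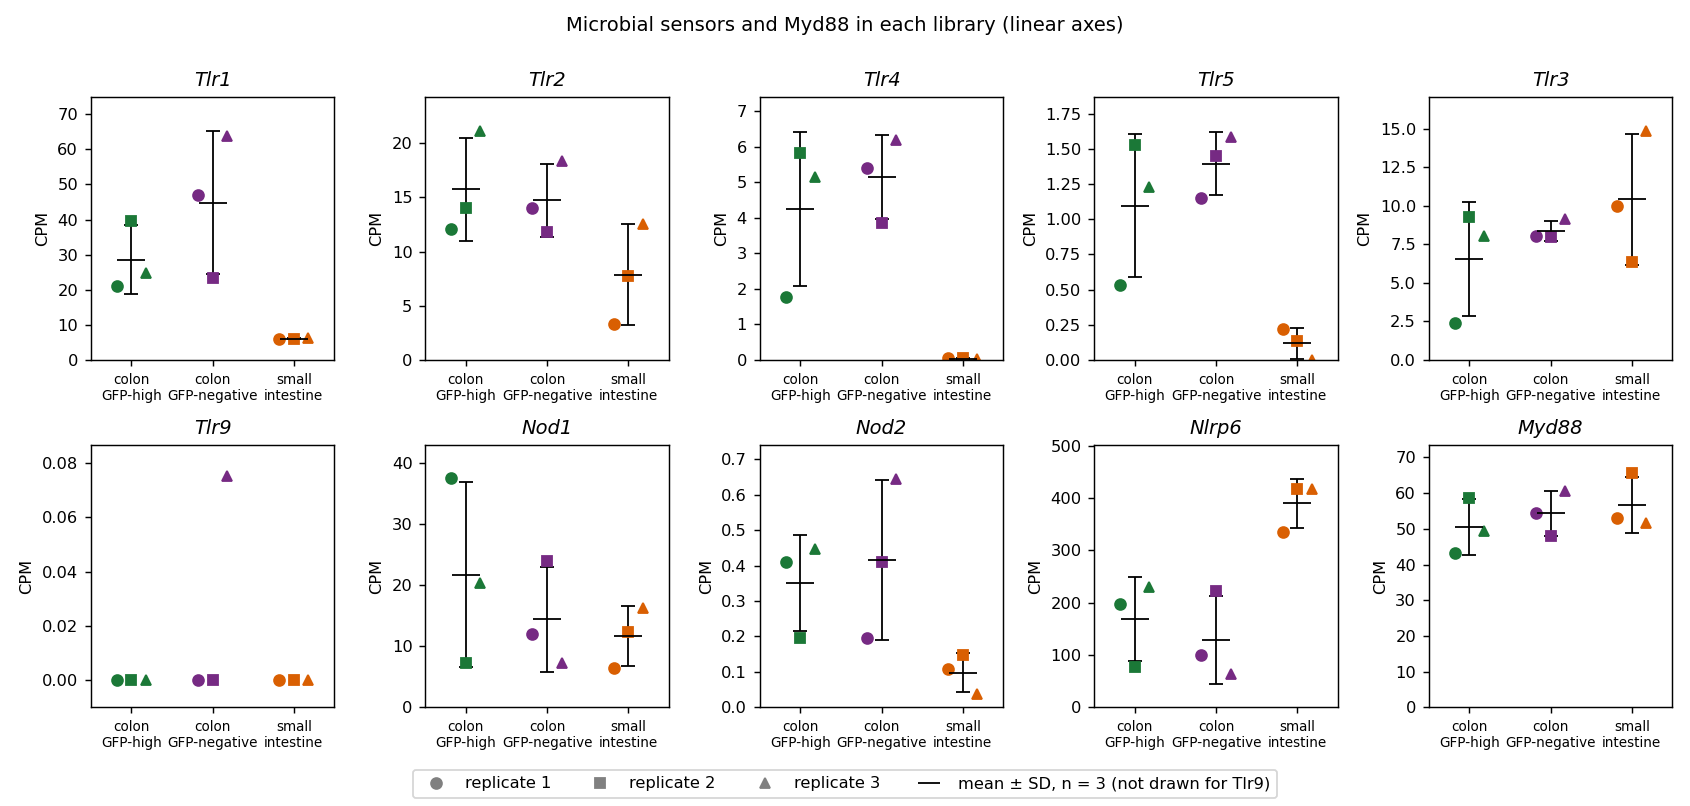
CPM of the 10 genes (vertical axes, linear, each with its own scale) in the 3 libraries of each group, with symbols for the replicate number and bars for mean ± SD. Tlr1, Tlr4, Tlr5 and Nod2 are higher, and Nlrp6 lower, in all 6 colon libraries than in the 3 small intestinal ones, and Tlr9 is above 0 in 1 library.

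The sequences before the transcription start are shown for 3 genes whose libraries did not overlap between colon and small intestine, Tlr1 and Tlr5 on the higher side and Nlrp6 on the lower side in colon. Each window runs from 250 bases before to 50 bases after a RefSeq start on GRCm38.p6, 5′ to 3′ on the strand of the gene. Capitals mark matches on either strand to the motifs searched, which were the TATA box (letters TATAAA), the CDX core (letters CATAAA), the HNF4 core (letters CAAAGTCC), the NF-kappaB core (letters GGACTTTCC) and the Ets core (letters GAGGAAGT). The Tlr1 window is chr5:64933509-64933808 on the minus strand, the nearer of 2 windows to the annotated start. The Tlr5 window is chr1:182954538-182954837 on the plus strand and the Nlrp6 window is chr7:140920652-140920951 on the plus strand.
Tlr1: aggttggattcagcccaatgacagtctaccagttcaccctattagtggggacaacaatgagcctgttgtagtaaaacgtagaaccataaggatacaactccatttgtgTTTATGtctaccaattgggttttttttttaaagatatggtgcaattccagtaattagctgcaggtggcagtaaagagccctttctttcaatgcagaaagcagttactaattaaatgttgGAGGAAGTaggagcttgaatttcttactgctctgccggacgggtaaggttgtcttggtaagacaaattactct
Tlr5: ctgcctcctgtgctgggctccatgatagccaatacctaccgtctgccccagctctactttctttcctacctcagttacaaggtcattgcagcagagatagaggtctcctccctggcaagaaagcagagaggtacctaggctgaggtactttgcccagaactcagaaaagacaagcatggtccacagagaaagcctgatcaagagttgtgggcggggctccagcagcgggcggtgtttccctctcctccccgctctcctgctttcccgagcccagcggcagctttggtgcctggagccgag
Nlrp6: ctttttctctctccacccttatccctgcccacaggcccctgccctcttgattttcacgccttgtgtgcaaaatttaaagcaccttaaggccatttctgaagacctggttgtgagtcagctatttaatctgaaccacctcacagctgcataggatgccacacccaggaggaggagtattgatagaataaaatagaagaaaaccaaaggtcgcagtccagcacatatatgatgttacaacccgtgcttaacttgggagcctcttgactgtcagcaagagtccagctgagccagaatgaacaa
The Tlr1 window held CATAAA on the opposite strand at bases 109 to 114 and GAGGAAGT at bases 228 to 235, counted from the 5′ end. Of 32851 RefSeq promoter windows of the same length, 11.9% held CATAAA and 3.2% held GAGGAAGT. The letters of the 5 motifs were not in the Tlr5, Nlrp6, Tlr2, Tlr3, Nod1 or Nod2 windows. The Myd88 window held TATAAA on both strands, at bases 87 to 92 and at bases 91 to 96, in matches that overlap, and the Tlr9 window held GAGGAAGT at bases 261 to 268 on the opposite strand. The windows of Myd88 (chr9:119339969-119340268) and Tlr3 (chr8:45410331-45410630) lie inside the annotated spans of these minus-strand genes. The annotated starts of Myd88 and Tlr3 are at 119341411 and 45411080. TATAAA was in 13.6% of all windows, CAAAGTCC in 1.42% and GGACTTTCC in 0.344%. The Tlr1 window had 40.3% G and C and an observed to expected CpG ratio of 0.251, the Tlr5 window 57.3% and 0.327, and the Nlrp6 window 46.7% and 0.188. Over all windows the medians were 52.7% and 0.384. Windows matched 9 of the 10 genes, and Tlr4 had no window in the set used.

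The regional comparison asked how the colon differs from the small intestine. Tlr4 and Tlr1 were higher in the colon by edgeR's quasi-likelihood test. These were 2 of the 9 genes tested (Tlr9 did not pass the filter on low counts), with both colon fractions averaged. By the same test 8.76% of the 20610 genes tested were called, and 5.02% of the 20610 were higher and 3.74% lower. Against small intestine, colon GFP-high cells alone gave the same 2 genes, where 5.63% of all genes were called, 3.91% as higher and 1.72% as lower. The 2 comparisons share the small intestinal and the GFP-high libraries. The members' median log2 fold change, colon over small intestine, was 0.95, against -0.00044 over all genes tested, and 6 of 9 were positive.

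Tlr4, the lipopolysaccharide receptor, showed the widest gap. The gene (ENSMUSG00000039005.14) lies at chr4:66827584-66930284 on the plus strand of GRCm38. It had 1.77, 5.81 and 5.14 CPM in replicates 1 to 3 of GFP-high colon, 5.42, 3.87 and 6.19 CPM in GFP-negative colon, and 0.0411, 0.0586 and 0.0155 CPM in small intestine. Every colon library was above every small intestinal one, in which the gene had 3, 6 and 2 counts. In bulk libraries such as these, fewer cells that express a gene and less RNA per cell cannot be told apart. The log2 fold change was 6.90 ± 0.736 (SE) for colon over small intestine, or 119.6-fold, with an edgeR adjusted p of 0.00115. For colon GFP-high alone it was 6.76 ± 0.750 with an edgeR adjusted p of 0.00196. The ratio of pooled counts, scaled for depth, was 127.8 with an exact 95% counting interval of 71.3 to 256.3, which covers counting error only.

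Tlr1, the partner of TLR2 in sensing triacylated lipopeptides, followed. The gene (ENSMUSG00000044827.11) lies at chr5:64924679-64933563 on the minus strand of GRCm38. It had 21.1, 39.7 and 24.9 CPM in GFP-high colon, 47.0, 23.4 and 63.9 CPM in GFP-negative colon, and 5.83, 6.10 and 6.16 CPM in small intestine. The 3 small intestinal libraries had an SD of 0.178 CPM, the colon libraries ran from 21.1 to 63.9 CPM, and the regions did not overlap. The log2 fold change was 2.57 ± 0.374 for colon over small intestine, or 5.93-fold, with an edgeR adjusted p of 0.00434. For colon GFP-high alone it was 2.24 ± 0.395, or 4.74-fold, with an edgeR adjusted p of 0.0135. That last call rested on the small intestinal replicates: without replicate 1 of that group the edgeR adjusted p was 0.0594, and without replicate 3 it was 0.0565, at log2 fold changes of 2.22 and 2.28. Tlr6, a paralogue of Tlr1 that shares part of its sequence, had at most 2.05 CPM in any library. How reads that fit more than 1 gene were counted is not given in the sources used here.

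Tlr5, the flagellin receptor, was low throughout. The gene (ENSMUSG00000079164.11) lies at chr1:182954788-182976044 on the plus strand of GRCm38. It had 0.535, 1.52 and 1.23 CPM in GFP-high colon, 1.15, 1.45 and 1.59 CPM in GFP-negative colon, and 0.219, 0.137 and 0 CPM in small intestine, where the counts were 16, 14 and 0. The regions did not overlap. The log2 fold change of 3.39 ± 1.15 for colon over small intestine had an edgeR adjusted p of 0.109, and DESeq2 called the gene with an adjusted p of 0.00134. DESeq2 called 17.6% of all genes in this comparison, 10.9% as higher and 6.65% as lower. The depth-scaled ratio of pooled counts was 12.5, with an exact 95% counting interval of 8.70 to 18.7.

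Tlr2 (chr3:83836272-83841767, minus strand), which pairs with TLR1 or TLR6, overlapped between the regions. It had 12.1, 14.0 and 21.2 CPM in GFP-high colon, 14.0, 11.8 and 18.3 CPM in GFP-negative colon, and 3.35, 7.72 and 12.6 CPM in small intestine. Small intestine replicate 3 lay above 2 of the 6 colon libraries. The log2 fold change of 0.95 ± 0.415 for colon over small intestine had an edgeR adjusted p of 0.199. Per length, the ratio of Tlr1 to Tlr2 was 1.57, 2.55 and 1.06 in GFP-high colon, 3.02, 1.79 and 3.14 in GFP-negative colon, and 1.57, 0.712 and 0.441 in small intestine. Tlr1 was thus the higher of the pair in all 6 colon libraries and in 1 of the 3 small intestinal ones.

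Of the endosomal receptors, Tlr3 was tested and not called, and Tlr9 was not tested. Tlr3 (chr8:45395665-45411080, minus strand), the receptor for double-stranded RNA, had 2.37, 9.29 and 8.01 CPM in GFP-high colon, 8.05, 7.99 and 9.14 CPM in GFP-negative colon, and 10.01, 6.39 and 14.9 CPM in small intestine. The groups overlapped, and the log2 fold change of -0.49 ± 0.432 for colon over small intestine had an edgeR adjusted p of 0.525. An antisense gene, Gm45542, overlaps Tlr3 in GENCODE M21, and the strand setting of the counting is not given in the sources used here. Tlr9 (chr9:106222598-106226883, plus strand), the receptor for CpG DNA, was listed at 0 in 8 libraries and had 7 counts (0.0751 CPM) in colon GFP-negative replicate 3, the library with the highest leukocyte and B cell sums. In the other libraries a count of 0 allows up to 0.0232 to 0.0411 CPM.

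Among the cytosolic receptors, Nlrp6 was the one with its lower values in the colon. The gene (ENSMUSG00000038745.16) lies at chr7:140920902-140929192 on the plus strand of GRCm38. It had 198, 77.6 and 231 CPM in GFP-high colon, 101, 223 and 63.3 CPM in GFP-negative colon, and 336, 417 and 417 CPM in small intestine. All 6 colon libraries were below the 3 small intestinal ones. The log2 fold change of -1.40 ± 0.426, which is 2.64-fold, had an edgeR adjusted p of 0.0801 and did not pass the threshold. DESeq2 called it with an adjusted p of 0.0145, and edgeR did so with the library labelled GFP-negative replicate 2 of the colon left out (log2 fold change -1.73, adjusted p = 0.0307). For colon GFP-high alone the log2 fold change was -1.21 ± 0.517 with an edgeR adjusted p of 0.231.

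Nod2 (chr8:88647315-88688474, plus strand), the receptor for muramyl dipeptide, was barely detected. It had 0.410, 0.196 and 0.447 CPM in GFP-high colon, 0.194, 0.409 and 0.643 CPM in GFP-negative colon, and 0.110, 0.146 and 0.0387 CPM in small intestine. The pooled counts were 225 in colon and 28 in small intestine, a depth-scaled ratio of 4.26 with an exact 95% counting interval of 2.87 to 6.55. The regions did not overlap, and the log2 fold change of 1.95 ± 0.757 had an edgeR adjusted p of 0.154. Nod1 (chr6:54923949-54972612, minus strand), which senses peptidoglycan fragments carrying diaminopimelic acid, was higher in level and overlapped between the regions. It had 37.5, 7.26 and 20.4 CPM in GFP-high colon, 11.99, 23.9 and 7.29 CPM in GFP-negative colon, and 6.50, 12.3 and 16.2 CPM in small intestine. Its log2 fold change was 0.60 ± 0.564 for colon over small intestine, with an edgeR adjusted p of 0.559.

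Myd88 (chr9:119335934-119341411, minus strand), the adaptor, lay between 43.3 and 65.7 CPM in all 9 libraries. It had 43.3, 58.8 and 49.3 CPM in GFP-high colon, 54.4, 48.0 and 60.6 CPM in GFP-negative colon, and 53.0, 65.7 and 51.5 CPM in small intestine. The 3 groups overlapped, and the log2 fold change of -0.12 ± 0.184 for colon over small intestine had an edgeR adjusted p of 0.740. Its annotated span overlaps Slc22a14 on the same strand and Acaa1a on the other strand. Of the 9 genes tested, Tlr1, Tlr4, Tlr5 and Nod2 were higher and Nlrp6 lower in every colon library than in every small intestinal one. Over all genes tested, 9.49% were higher and 8.39% lower in that way. For colon GFP-high alone against small intestine, the log2 fold changes of the 6 genes not yet given were 3.21 ± 1.21 for Tlr5, 1.83 ± 0.818 for Nod2, 1.00 ± 0.464 for Tlr2, 0.89 ± 0.640 for Nod1, -0.67 ± 0.509 for Tlr3 and -0.17 ± 0.213 for Myd88. Their edgeR adjusted p-values lay between 0.178 for Tlr5 and 0.721 for Myd88. DESeq2, which called 13.2% of all genes there, also called Tlr5 (adjusted p = 0.0142).

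**Figure D2:**
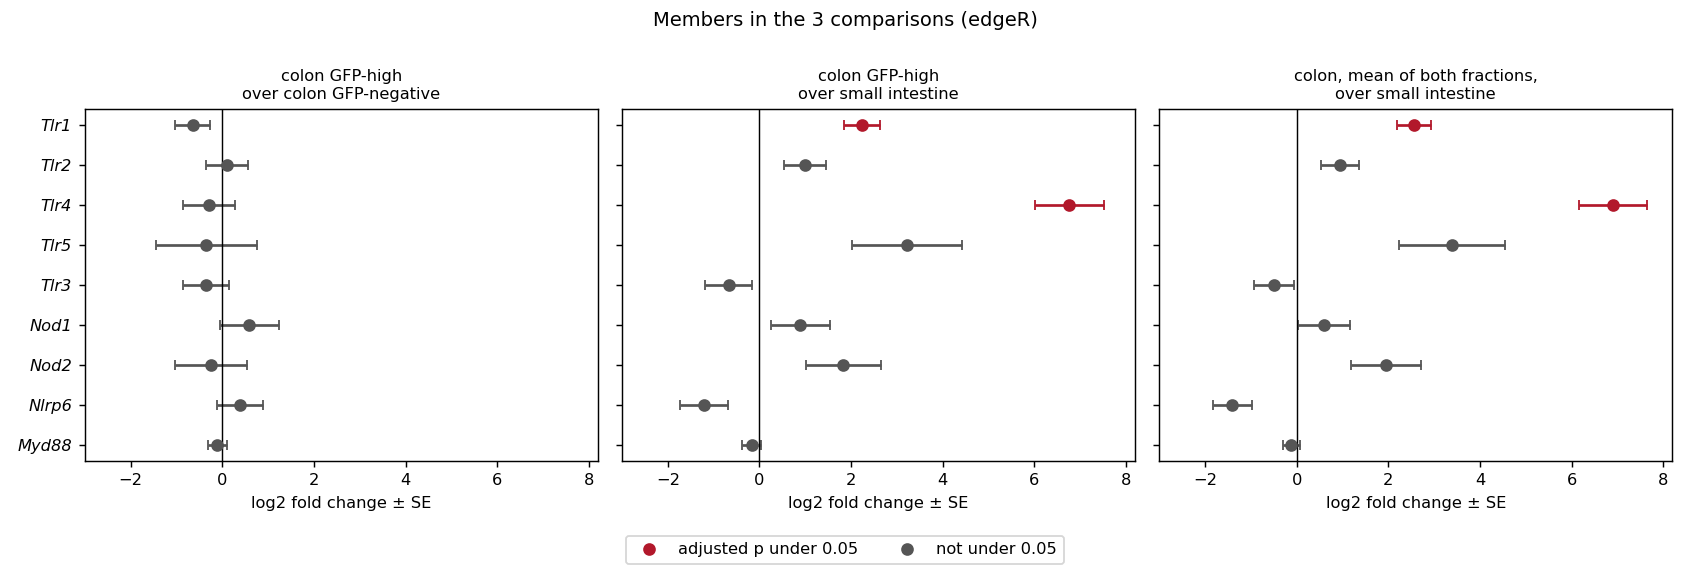
Log2 fold change ± SE (horizontal axis) from edgeR for the 9 genes tested, in the 3 comparisons, with red for an adjusted p under 0.05. Tlr4 and Tlr1 are red in both comparisons with small intestine, and none of the 9 is red between the colon fractions.

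Between the colon fractions, GFP-high against GFP-negative, none of the 9 genes passed the test. The share of all genes called by edgeR was 0%, with 222 genes (1.08%) at an unadjusted p under 0.05. DESeq2 called 1 gene (0.00485%) and limma-voom 0. The log2 fold changes of the 9 genes lay between -0.65 ± 0.379 for Tlr1 and 0.59 ± 0.637 for Nod1, all with an edgeR adjusted p of 1, and the groups overlapped for each of the 9. Of all genes tested, 2.81% were higher and 1.59% lower in every GFP-high than in every GFP-negative library. Tlr4 had a log2 fold change of -0.28 ± 0.570, Nlrp6 one of 0.39 ± 0.511 and Myd88 one of -0.11 ± 0.213. Those of Tlr2, Tlr3, Tlr5 and Nod2 were 0.10 ± 0.459, -0.36 ± 0.508, -0.35 ± 1.10 and -0.24 ± 0.786.

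Without both colon libraries numbered 2, whose Lgr5 goes against their labels, 2 libraries remained in each colon fraction. Nlrp6 then had a log2 fold change of 1.38 and Tlr1 one of -1.27, both with an edgeR adjusted p of 0.425, and edgeR called none of the 9. DESeq2 called these 2, Nlrp6 as higher in GFP-high cells (1.34, adjusted p = 0.0281) and Tlr1 as lower (-1.32, adjusted p = 0.0172). On the same 7 libraries DESeq2 called 3.22% of all genes, 0.547% as higher and 2.67% as lower. This comparison was chosen after the data were seen.

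Ordered by Lgr5, the 6 colon libraries gave a description that does not use the GFP labels. The 3 libraries with the most Lgr5 were GFP-high replicates 1 and 3 and the one labelled GFP-negative replicate 2. They held the 3 highest values of Nlrp6, at 198, 231 and 223 CPM, and of Nod1, at 37.5, 20.4 and 23.9 CPM. The same libraries held the 3 lowest values of Tlr1, at 21.1, 24.9 and 23.4 CPM, and also of Tlr3, Tlr4 and Myd88. For Tlr3 the highest of these 3 was 8.01 CPM and the lowest of the other 3 was 8.05 CPM. Tlr2, Tlr5 and Nod2 were mixed. Of all genes tested, 12.2% had their 3 highest and 13.1% their 3 lowest values in these libraries. The libraries were not tested as groups, since they were picked by a measured gene.

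**Figure D3:**
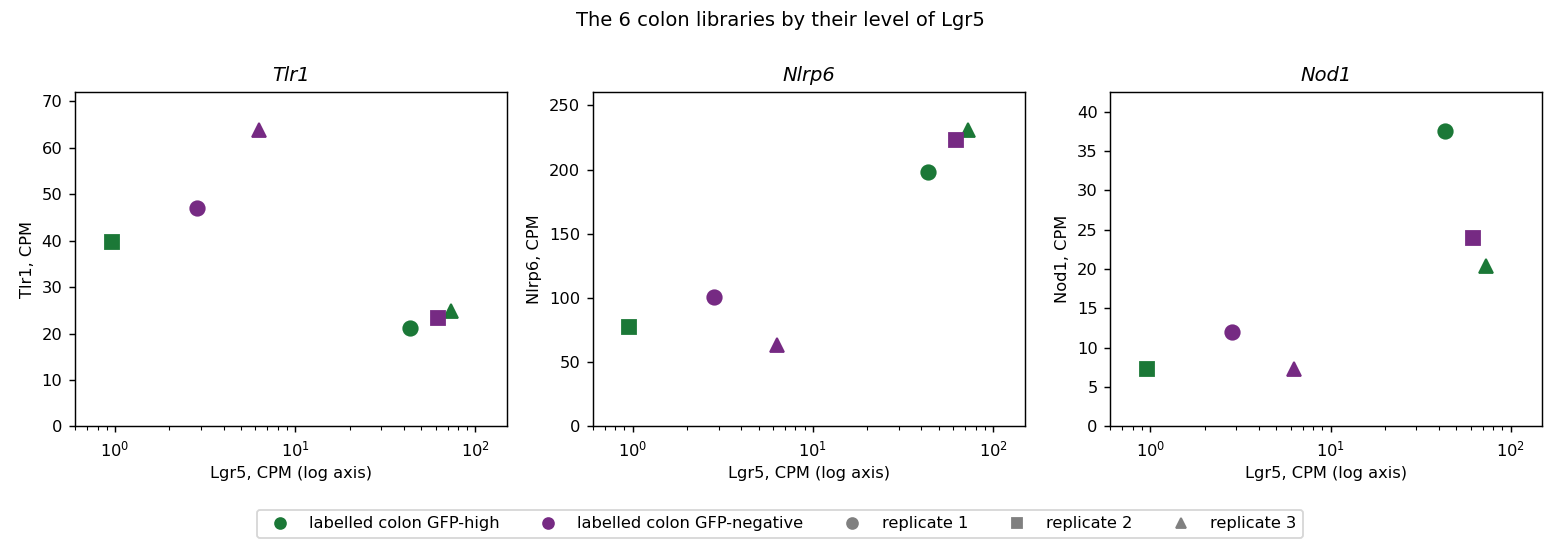
CPM of Tlr1, Nlrp6 and Nod1 (vertical axes, linear) against Lgr5 in CPM (horizontal axis, log scale) in the 6 colon libraries, coloured by the labelled GFP fraction. The library labelled GFP-negative replicate 2 lies with GFP-high replicates 1 and 3 in each panel, and the library labelled GFP-high replicate 2 lies with the other GFP-negative ones.

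Leukocytes also express several of these receptors, and their transcripts moved with part of the pattern inside the colon. The 3 colon libraries with the highest leukocyte sums were the one labelled GFP-high replicate 2 (157 CPM) and GFP-negative replicates 1 and 3 (124 and 2005 CPM), which are also the 3 with the least Lgr5. They held the 3 highest values of Tlr1, Tlr3, Tlr4 and Myd88 among the colon libraries, as they did for 13.1% of all genes tested. For Tlr3 the nearest values of the 2 sides were 8.05 and 8.01 CPM. Their sums of 11 macrophage, monocyte and neutrophil markers were 246, 673 and 1117 CPM, against 1.83, 3.56 and 64.4 CPM in the other 3 colon libraries and 11.1 to 26.7 CPM in small intestine. Of the 64.4 CPM, in the library labelled GFP-negative replicate 2, C1qa made up 63.45 CPM and the other 10 markers 0.927 CPM. Their sums of 5 B cell markers were 12.7, 14.1 and 901 CPM, against 0.487, 1.05 and 0.488 CPM in the other 3 and 1.89 to 6.65 CPM in small intestine. Enteroendocrine and goblet cell markers also separated these colon libraries. Sums of 6 enteroendocrine markers were 11770, 3343 and 3274 CPM, against 638, 474.4 and 149.9 CPM in the other 3. Those of 6 goblet cell markers were 35250, 27090 and 18650 CPM, against 11980, 6235 and 12910 CPM. Stem cell marker sums were lower in these 3 libraries, and Paneth and tuft cell sums were mixed. Between the regions, Paneth cell sums were 28.5 to 5099 CPM in colon and 16010 to 25520 CPM in small intestine. Stem cell sums were 55.3 to 638 CPM and 5385 to 10070 CPM, where Olfm4 alone had 4909 to 8852 CPM in small intestine. Goblet, enteroendocrine and tuft cell sums overlapped between the regions. The part of each cell type in the pattern and in the regional differences was not tested.

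Tlr4 and Tlr1 stayed past the threshold between the regions without these libraries. In colon GFP-high replicate 1, where 3 of the 6 leukocyte markers were at 0, Tlr4 had 1.77 CPM and Tlr1 had 21.1 CPM, both above all 3 small intestinal libraries. With the 3 leukocyte-rich colon libraries left out, Tlr4 had a log2 fold change of 6.56 for colon over small intestine (edgeR adjusted p = 0.00848) and Tlr1 one of 1.94 (edgeR adjusted p = 0.0163). For Nlrp6 the value was -0.83, with an adjusted p of 0.261 by edgeR and 0.0309 by DESeq2. The colon libraries left are those with the most Lgr5, so leaving out the others changes more than the leukocyte content. The part of leukocyte RNA in the regional differences and in the spread of Tlr1 within the colon was not tested.

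**Figure D4:**
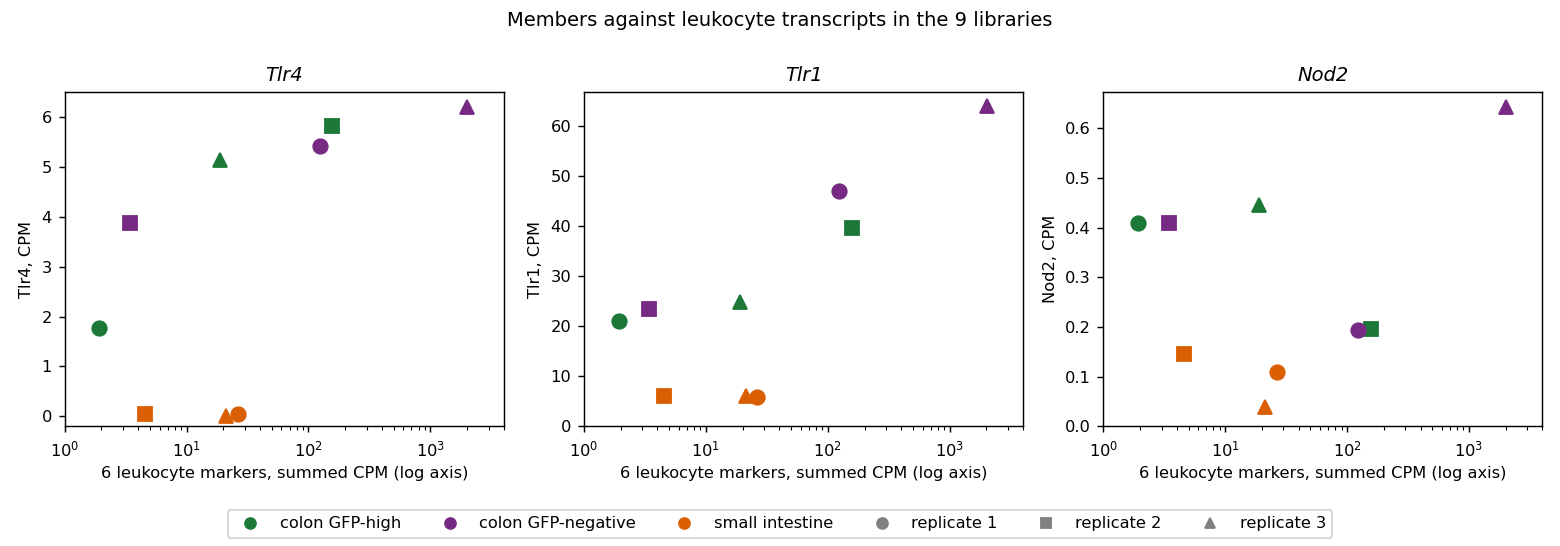
CPM of Tlr4, Tlr1 and Nod2 (vertical axes, linear) against the summed CPM of 6 leukocyte markers (horizontal axis, log scale) in all 9 libraries, coloured by group. At leukocyte sums of 1.93 to 26.5 CPM, colon libraries have 1.77 to 5.14 CPM of Tlr4 and small intestinal libraries 0.0155 to 0.0586 CPM.

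Other genes of the same pathways were read from 9 lists of co-receptors, adaptors, kinases, inhibitors, transcription factors, other sensors and targets. Of 118 genes in the table, 102 were tested. With both colon fractions averaged, 7 were higher and 7 lower than in small intestine by edgeR, or 13.7%, against the 8.76% of all genes given above, and the lists' median log2 fold change was -0.24. Colon GFP-high cells alone gave 3 higher and 4 lower, or 6.86% against 5.63% of all genes. Between the colon fractions, edgeR and DESeq2 each called 0 of the 102. With all 9 libraries, DESeq2 gave no adjusted p for Irf5 and Pglyrp2. Without both colon libraries numbered 2, edgeR called 0 of 105 tested (12 at an unadjusted p under 0.05) and DESeq2 called 7 (6.67%, against the 3.22% of all genes given above), all as lower in GFP-high cells. These 7 were Il1b, Pglyrp2, Cd36, Nlrc3, Saa3, Nlrc5 and Irf5. Irf5, a transcription factor downstream of Toll-like receptors, had the highest level of the 7, at means of 1.79 CPM in the 2 GFP-high and 29.4 CPM in the 2 GFP-negative libraries left (log2 fold change -4.09 ± 0.974, DESeq2 adjusted p = 0.00171). GFP-high replicates 1 and 3 had 2.06 and 1.51 CPM of Irf5. The mean of 29.4 CPM rested on GFP-negative replicate 3, at 55.3 CPM, while GFP-negative replicate 1 had 3.47 CPM. Both of those GFP-negative libraries are among the 3 colon libraries with the highest leukocyte sums, whose part in these calls was not tested.

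The partners of the surface receptors were divided. Cd14, the co-receptor that hands lipopolysaccharide to TLR4, had 167, 120 and 114 CPM in GFP-high colon, 156, 99.6 and 144 CPM in GFP-negative colon, and 18.4, 47.1 and 35.4 CPM in small intestine. The regions did not overlap, and its log2 fold change was 1.99 ± 0.340 for colon over small intestine (edgeR adjusted p = 0.00828). Ly96, which encodes MD-2, had 28.1 to 39.4 CPM in the 6 colon libraries and 11.9 to 31.3 CPM in small intestine, which overlap (log2 fold change 0.61 ± 0.305, edgeR adjusted p = 0.259). Hsp90b1, the chaperone that folds Toll-like receptors, was the highest of its list per length, at 112.3 RPKM over all 9 libraries. Tlr6 was the other Toll-like receptor with a value in every library, at 0.124, 1.06 and 0.745 CPM in GFP-high colon, 1.102, 1.07 and 2.05 CPM in GFP-negative colon, and 0.247, 0.117 and 0.0465 CPM in small intestine. Its log2 fold change of 2.80 ± 0.875 had an edgeR adjusted p of 0.0870, and the regions overlapped. DESeq2 called the gene (DESeq2 adjusted p = 0.00402), as it did 17.6% of all genes. Tlr7 was detected in colon GFP-negative replicates 1 and 3 alone, at 0.156 and 0.933 CPM, which are 2 of the 3 colon libraries rich in leukocyte transcripts.

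Downstream of the receptors, 2 of the 12 inhibitors tested were called by edgeR as higher in the colon and 0 as lower. That is 16.7% of the list, against 8.76% of all genes called, 5.02% as higher. Of the 12 inhibitors, 4 had a positive log2 fold change, and the median of the list was -0.20. Irak3, which encodes the kinase-dead IRAK-M that restrains MyD88 signalling, had 9.97, 11.8 and 8.47 CPM in GFP-high colon, 9.62, 9.85 and 8.202 CPM in GFP-negative colon, and 1.39, 1.86 and 2.93 CPM in small intestine. Its log2 fold change was 2.23 ± 0.333 (edgeR adjusted p = 0.00475). Sigirr, a membrane inhibitor of Toll-like and interleukin-1 receptors, had a log2 fold change of 0.97 ± 0.240 (edgeR adjusted p = 0.0391). Nfkbia, an inhibitor and target of NF-kappaB, was the highest inhibitor per length at 107.7 RPKM and had a log2 fold change of -0.16 ± 0.257 (edgeR adjusted p = 0.742). Among adaptors and kinases, Ripk2, the kinase of NOD1 and NOD2, was higher in the colon (1.34 ± 0.286, edgeR adjusted p = 0.0218) and Mapk14, the p38 alpha kinase, lower (-0.81 ± 0.173, edgeR adjusted p = 0.0222). Irak1 was the highest of that list, at 24.4 RPKM.

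Of the other cytosolic sensors, Aim2, an inflammasome receptor for double-stranded DNA, had the largest change among those called as higher in the colon. It had 5.97, 10.1 and 17.99 CPM in GFP-high colon, 12.7, 18.1 and 13.5 CPM in GFP-negative colon, and 1.40, 1.27 and 0.759 CPM in small intestine. The log2 fold change was 3.50 ± 0.455 (edgeR adjusted p = 0.00260). Nlrx1, a mitochondrial NOD-like receptor, was higher by 1.22 ± 0.309 on the log2 scale (edgeR adjusted p = 0.0431), and Pglyrp1, a secreted peptidoglycan-binding protein, by 1.08 ± 0.244 (edgeR adjusted p = 0.0273). Pglyrp1 was the highest of its list at 249.2 RPKM. Casp8 and Mavs, the highest of the inflammasome and nucleic acid sensor lists at 59.4 and 14.5 RPKM, were not called.

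The transcription factors and targets called by edgeR were all lower in the colon. Of the 10 transcription factors tested, 2 were called, or 20%, against 8.76% of all genes. Irf1, an interferon-induced transcription factor, had a log2 fold change of -1.11 ± 0.198 (edgeR adjusted p = 0.0101), and Nfkbiz, which encodes the nuclear IkappaB-zeta, one of -1.46 ± 0.331 (edgeR adjusted p = 0.0276). Among the targets, edgeR called 4 of 16 tested, or 25%, against 8.76% of all genes. DESeq2 called 5 of these 16 targets as lower and 1 as higher, Saa1 (DESeq2 adjusted p = 0.0155), whose regions overlapped. Of all genes, DESeq2 called 17.6% in this comparison, 10.9% as higher and 6.65% as lower. Reg3g, an antibacterial lectin, had 44.4, 193.5 and 162.1 CPM in GFP-high colon, 77.7, 63.4 and 253.1 CPM in GFP-negative colon, and 4894, 1275 and 443.1 CPM in small intestine. Its log2 fold change was -4.06 ± 0.779 (edgeR adjusted p = 0.0139), and that of its relative Reg3b, the highest target at 593.3 RPKM, was -3.89 ± 1.01 (edgeR adjusted p = 0.0474). Ccl25, a chemokine known for its expression in the small intestine, had 14.8, 12.5 and 13.9 CPM in GFP-high colon, 11.2, 20.1 and 4.57 CPM in GFP-negative colon, and 1574, 393.3 and 341.6 CPM in small intestine (log2 fold change -5.91 ± 0.603, edgeR adjusted p = 0.000956). Nos2, the inducible nitric oxide synthase, had at most 0.968 CPM in the colon, with 2 colon libraries at 0, and 51.8, 12.5 and 12.3 CPM in small intestine. Its log2 fold change of -7.18 ± 1.30 had an edgeR adjusted p of 0.0106 and depends on the prior count.

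**Figure D5:**
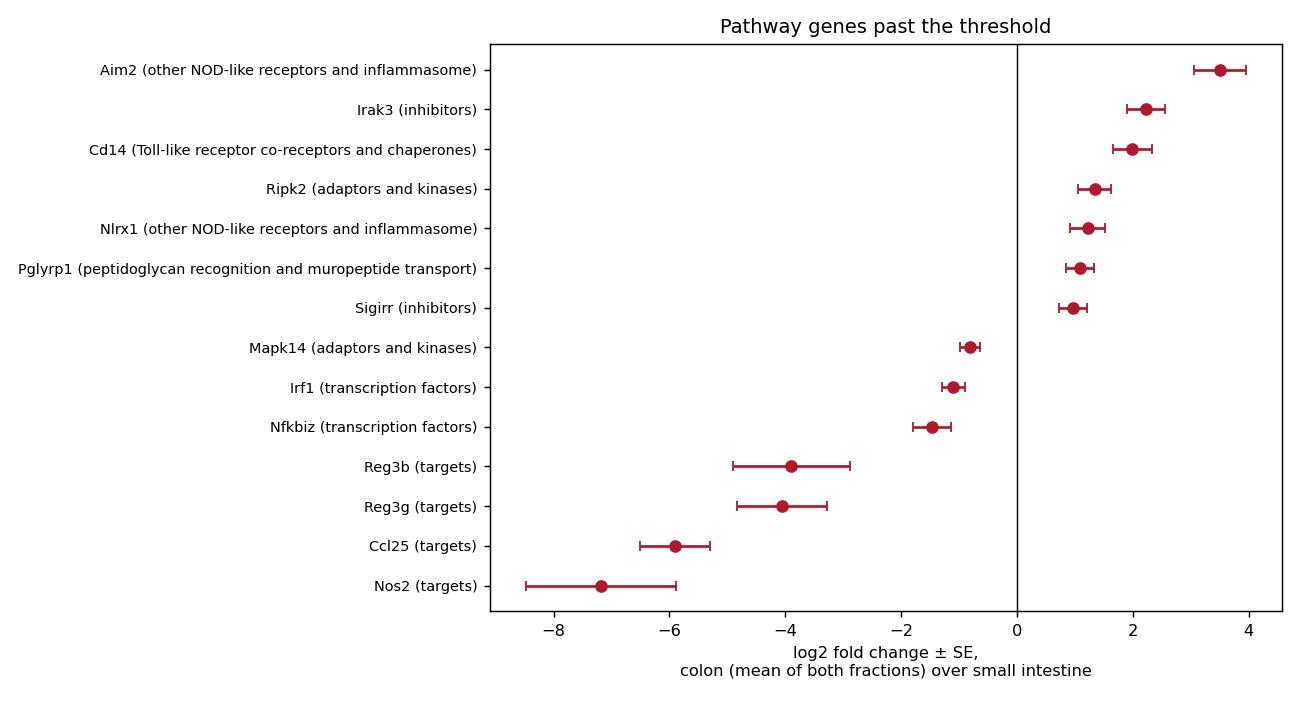
Log2 fold change ± SE (horizontal axis), colon with both fractions averaged over small intestine, for the 14 pathway genes past an edgeR adjusted p of 0.05, with the list of each in brackets. Aim2, Irak3 and Cd14 have the highest of the 7 positive values and the targets Nos2, Ccl25, Reg3g and Reg3b the lowest of the 7 negative ones.

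With the 3 colon libraries highest in leukocyte markers left out, 3 of the 14 were still called by edgeR (Aim2, Irak3 and Ccl25) and 12 by DESeq2, and all 14 had the same sign. Without both colon libraries numbered 2, edgeR called 5 of the 14: Aim2, Irak3, Cd14, Ccl25 and Nos2. Of the 7 genes called for colon GFP-high alone, edgeR called 2 in each of these settings. Without small intestine replicate 1, 5 of the 14 were called: Aim2, Irak3, Cd14, Ccl25 and Irf1. Without each of the other libraries in turn it was 7 to 12, with 7 both without colon GFP-negative replicate 1 and without small intestine replicate 3. Aim2, Irak3, Cd14, Ccl25 and Irf1 were called by edgeR without each of the 9 libraries in turn. The calls least often kept in those 9 fits were Nlrx1 and Reg3b (1 of 9 each), Sigirr (2 of 9), and Mapk14 and Pglyrp1 (3 of 9 each). Without small intestine replicate 1, Reg3b had a log2 fold change of -2.25 and Reg3g one of -2.70.

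The genes whose log2(CPM + 1) was most like that of a sensor over the 9 libraries were named from 13538 other genes, as a description of libraries that share 2 regions. Tlr1 was closest to Hottip (Pearson r = 0.997), Unc119 (0.991) and Armc3 (0.989). Tlr4 was closest to Niban1 (0.989), Car1 (0.989) and Cyp2d10 (0.988), and Nlrp6 to Acot1 (0.990), Eif4h (0.988) and Tgm2 (0.987). Nod1 was closest to Csad (0.972), Eda2r (0.948) and Slc27a3 (0.946), and Tlr2 to Tk2 (0.966), Nrbp2 (0.965) and Bicd1 (0.962). Tlr3 was closest to Cyb561d1 (0.957), Cfap74 (0.954) and Lcorl (0.949), and Myd88 to 6230426M11Rik (0.915), Fam20c (0.898) and Tigar (0.887). Among 13539 genes, Tlr5 was closest to Pdgfd (0.979), Fem1al (0.976) and Tlr4 (0.973), and Nod2 to Rac3 (0.945), Mdfic (0.942) and Apbb1ip (0.930).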

How the data were processed

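Polyadenylated RNA of 9 libraries (3 groups of 3) was measured. The submitters' processing notes name build mm10 and the tools STAR, featureCounts, Subread and edgeR. Their versions, the strand setting and the treatment of multi-mapping reads are not stated in the labels or headers. Per the file headers, the deposited table holds raw counts per gene and library, a gene length, library totals, TMM factors (a ratio) and log2 CPM, log2 RPKM and log2 TPM made by the authors. Here only the deposited counts, lengths, totals and factors were used; the factors were recomputed within 4.44e-15.

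Counts were tested in R 4.3.3 with edgeR 4.0.16 (filterByExpr, TMM, 1 quasi-likelihood fit of the 9 libraries, two-sided, Benjamini-Hochberg over 20610 genes tested, 57629 not tested). A gene was called at an adjusted p under 0.05. DESeq2 1.42.0 and limma 3.58.1 (voom) were alternatives. The steps were tested on simulated data. CPM used total times factor, RPKM also the deposited length. With a common biological coefficient of variation of 0.726, spread between libraries limits precision more than depth. Coordinates are GENCODE M21 (GRCm38); all 10 genes matched by ID without version. Sequences are RefSeq's (GRCm38.p6). Of samples named in the table, 0 were unmatched.

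The members, lists and tests were chosen with earlier results of these data known. Named genes are all 10 members, the highest gene per length of each pathway list, up to 3 called genes per list and comparison with the largest change, and the 3 genes most like each member; Ly96, Tlr6 and Tlr7 were named after their values were seen. Alternatives were other scalings, filters and tools, blocks by number and by library name tag, and leaving out libraries.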

Additional observations from a re-analysis of the deposited data

Results flagged for a closer look

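Tlr3 in colon GFP-high replicate 1, at 2.37 CPM, lay far below the other 5 colon libraries, which had 7.99 to 9.29 CPM; the gap to the nearest was 0.813 of the range of all 6, above Dixon's limit of 0.625. Tlr9 at 0.0751 CPM in colon GFP-negative replicate 3 stood above 0 in the other 5 colon libraries, so its gap was the whole range by construction, which says nothing beyond its 7 counts against 0. These were 2 of 20 ends checked, and for values that are not tied chance gives such a gap in about 1 in 20 groups. Without colon GFP-high replicate 1 the log2 fold change of Tlr3, GFP-high over GFP-negative, was 0.04, against -0.36 with it.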

How the results depend on the processing

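Between colon and small intestine, Tlr4 was called in 21 of 22 alternatives in each comparison, with log2 fold changes of 6.39 to 7.37. Tlr1 was called in 21 of 22 with both fractions averaged and in 18 of 22 for GFP-high alone, and Nlrp6 in 5 of 22 with both fractions averaged. Genes called were 2713 (GFP-high) and 3618 (both fractions) by DESeq2. DESeq2 called 4 members with both fractions averaged, also without both colon libraries numbered 2. Without those 2 libraries edgeR called 504 and 1082 genes and DESeq2 1879 and 2845. Without the 3 colon libraries highest in leukocyte markers edgeR called 676 and 785, and DESeq2 2170 for GFP-high. That setting could not be run between the colon fractions, since 1 GFP-negative library remains. The replicate block, by number, left 508 and 887 genes, and 1 member, Tlr4, for GFP-high (Tlr1 2.25, edgeR adjusted p = 0.0630). A block by the library name tag left 18 and 17 genes and 0 members (Tlr4 6.77 and 6.80, edgeR adjusted p = 0.177 and 0.171; Tlr1 2.18 and 2.31, edgeR adjusted p = 0.266 and 0.256). Of the 14 pathway genes called with both fractions averaged, 8 were called under the block by number and 0 under that by tag; of the 7 for GFP-high, 3 and 0. The deviations of libraries from their group means correlated between -0.645 and 0.352 in 9 pairs of the same number and between -0.645 and 0.390 in 5 pairs of the same tag, and 2 pairs of each kind were over 0.1. The -0.645 is that of the 2 colon libraries numbered 2, which have the same tag and whose Lgr5 goes against their labels. Such a pair can deviate in opposite directions for that reason alone, so this value cannot decide on a pairing. The labels do not say what number or tag marks, so neither was taken as a pairing. Leaving out each library in turn gave 1 to 2 members and 566 to 1334 genes for GFP-high, 981 to 1758 genes and 2 to 3 members for both fractions, and Myd88 values of -0.18 to 0.00 there. For GFP-high over GFP-negative, DESeq2 called 1 gene, and without both libraries numbered 2 it called 2 members and 700 genes. Directions there turned for Myd88 under total-count scaling (0.02) and, under the name tag block, for Myd88 (0.04), Nod1 (-0.09), Nlrp6 (-0.20), Nod2 (0.27) and Tlr5 (0.33). Leaving out each library gave -0.69 to 0.04 for Tlr3, -0.06 to 1.17 for Nod1, -0.58 to 0.08 for Tlr4, -0.58 to 0.22 for Nod2 and -0.18 to 0.28 for Tlr2. Over all alternatives the range was -0.09 to 1.59 for Nod1, -0.78 to 0.04 for Tlr3 and -0.80 to 0.08 for Tlr4. For Tlr5 it was -0.69 to 0.33 and for Myd88 -0.36 to 0.04. Without both libraries numbered 2, Nod2 was 0.03, and Tlr2 -0.01 by DESeq2. The cause of these changes was not tested. Nod2 and Tlr5 have no value under a filter of a mean of 1 CPM, which removes them. Counting limits Tlr4, Tlr5, Nod2 and Tlr9 in small intestine, where 3 counts equal up to 0.0411 CPM.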
